A study of Mus musculus with 24 samples.

Results

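The comparison described here is the change with culture time in organ of Corti explants that received no drug, 24 h against 6 h. The organ of Corti (OC) is the sensory epithelium of the cochlea. It was dissected from C57BL/6N mice of both sexes at 5 days of age and kept for 24 h in a medium with fetal calf serum and penicillin before the start of treatment. The libraries labelled control at 6 h and at 24 h were chosen by their labels, 3 at each time, which makes 6 of the 24 libraries of the series. The labels give 6 OCs per condition with each treatment in triplicate, and whether a library pooled 6 explants is not stated. The 6 h and 24 h times count from the start of treatment, during which the control wells (CTRL) held medium alone. The other 18 libraries, used below only for the same time contrast, came from wells with 50 µM gentamicin (GM), 10 µM pioglitazone (PIO) or both (PIO+GM). The labels do not say whether the 3 replicates of a group came from separate litters or days, so the p-values measure the spread between these libraries. Whether the 6 h and 24 h wells were dissected or extracted together is not stated, and such a difference and culture time cannot be told apart here. There was no freshly dissected tissue among the libraries, so every level at 6 h is itself that of a cultured explant.

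Some background helps to read the groups of genes below. When amino acids are short, or protein folding in the endoplasmic reticulum fails, kinases phosphorylate the initiation factor eIF2alpha, and the factor ATF4 is then made and switches on amino acid synthesis, amino acid uptake and tRNA charging, a programme called the integrated stress response. Heat shock factors raise cytosolic chaperones when proteins unfold. Immediate early genes are transcribed within minutes of a growth factor, a wound or another stimulus, and cytokine and wound genes follow them. Cutting a tissue and placing it in fresh serum is a known stimulus for several of these programmes, and serum or fresh medium is also known to reset the circadian clock of cultured cells.

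The 6 control libraries held between 11516308 and 15052556 counts on genes, so that 3 counts correspond to 0.199 to 0.261 CPM, the count of a gene scaled to the size of its library. All levels below are CPM after TMM scaling, whose factors lay between 0.961 and 1.009 in the control libraries. That floor covers counting error only. On the first principal component of the 6 libraries, which held 56.4% of the variance, the times separated completely. The second, with 17.5%, set apart the library of replicate 2 at 24 h, in which the fewest genes had a count (18592, against 20772 to 21459 in the other 5). Markers of the labelled tissue were present. The tectorial membrane genes Tecta and Tectb, the hair cell genes Myo7a, Otof and Pou4f3 and the supporting cell genes Sox2, Fgfr3 and Gjb2 had counts in every library. The melanin enzyme Dct was at 15.5, 160 and 13.4 CPM in replicates 1, 2 and 3 at 6 h and at 6.15, 124 and 2.18 CPM at 24 h. The 4 Y-linked genes Ddx3y, Eif2s3y, Kdm5d and Uty summed to 240, 4.32 and 235 CPM at 6 h and to 376, 84.6 and 1.22 CPM at 24 h, so the pools differed in the share of male tissue. With the Y-linked level as a covariate 4547 genes were called between the times, against 4564 without it, and the part of the other differences was not tested.

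Of 16317 genes tested, 4564 (28.0%) differed between 24 and 6 h at an adjusted p under 0.05 by edgeR's quasi-likelihood test with Benjamini-Hochberg adjustment. At 24 h, 2413 genes (14.8%) were higher and 2151 (13.2%) were lower. The fitted change was more than 2-fold for 1745 of them, 927 higher and 818 lower, and more than 4-fold for 286. The libraries of the 2 times did not overlap for 7578 genes (46.4%), and 4432 of the 4564 called genes were among these. At an unadjusted p under 0.05 there were 6367 (39.0%). The median log2 fold change over all genes tested was 0.03. Without replicate 2 at 6 h, the library farthest from the 24 h side on the first component, 2665 genes were called, and with any 1 of the other control libraries left out 3281 to 4295.

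**Figure D1:**
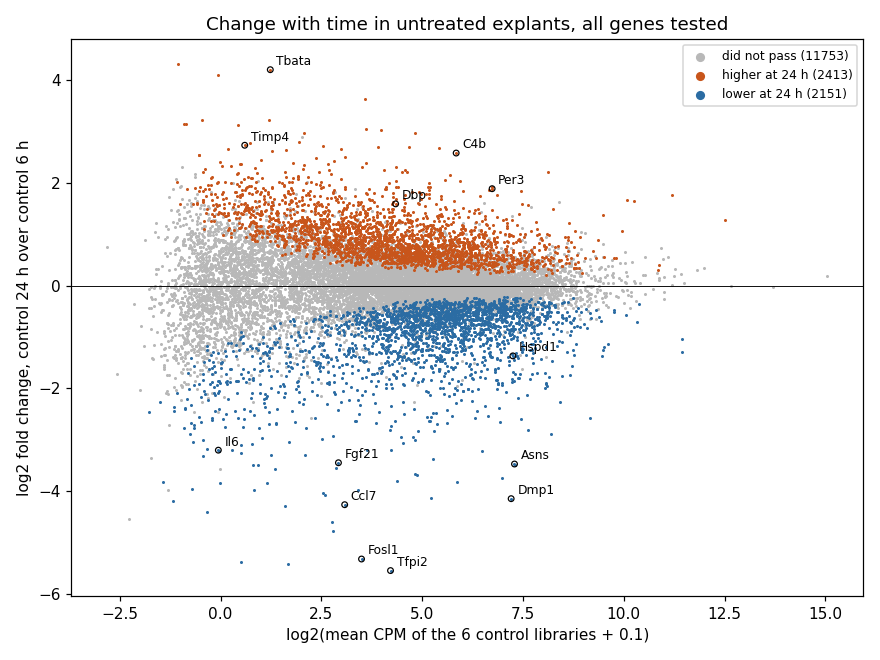
Each point is 1 of the 16317 genes tested, with the log2 of its mean CPM over the 6 control libraries (plus 0.1) on the x axis and its log2 fold change of control 24 h over control 6 h on the y axis; orange, higher at 24 h (2413), blue, lower (2151), grey, did not pass. The named genes are circled; Tfpi2 (-5.55) and Fosl1 (-5.32) lie at the lower edge.

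Among genes that passed and whose libraries did not overlap, the largest decrease was that of Tfpi2 (Entrez 21789, chromosome 6), which encodes a secreted serine protease inhibitor. It was at 38.4, 56.0 and 14.0 CPM at 6 h and at 0.703, 0.793 and 0.786 CPM at 24 h (log2 fold change -5.55, SE 0.55, adjusted p = 2.97e-06). Next came Dhrs9, a retinol dehydrogenase, with 46, 32 and 16 counts at 6 h and 1, 1 and 0 at 24 h, at which depth no fold is given. Sprr1a, a cornified envelope protein known to rise in injured neurons and epithelia, fell from 17.0, 16.5 and 5.91 CPM to 0.176, 0.528 and 0.698 CPM. Gjb1, the gap junction protein connexin 32, fell from 17.3, 17.0 and 4.47 CPM to 0.615, 0.595 and 0.349 CPM. In all of these replicate 3 was the lowest library at 6 h, and still lay above every library at 24 h. The prostaglandin transporter Slco2a1 was at 67.2, 104 and 39.6 CPM at 6 h and at 3.43, 6.08 and 2.27 CPM at 24 h. Dmp1, an acidic matrix protein of bone, was at 179, 516 and 143 CPM and then at 14.2, 18.3 and 14.7 CPM. Its log2 fold change was -4.15, and -3.35 without replicate 2 at 6 h, where it was highest. Aqp3, an aquaporin and glycerol channel, Ccl7, a monocyte chemokine, and Ngef, a guanine nucleotide exchange factor, completed the 10 largest decreases together with Fosl1, described below.

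The largest increases were mostly of genes with few reads. Tbata, a thymic and testis gene, was at 0.161, 0.265 and 0.240 CPM at 6 h, which is 2 or 3 counts, and at 5.10, 1.19 and 6.55 CPM at 24 h. Ranbp3l (Entrez 223332, chromosome 15), a nuclear export factor for Smad proteins, was at 1.37, 2.12 and 4.23 CPM at 6 h and at 25.3, 17.8 and 21.5 CPM at 24 h, 8.31-fold higher (log2 fold change 3.06, SE 0.38, adjusted p = 1.77e-05). Rag1, a subunit of the recombinase of lymphocytes, stood at 0.483, 1.24 and 1.04 CPM and then at 6.94, 6.41 and 8.38 CPM, with no overlap. Rbpjl, a paralogue of the Notch effector RBPJ, was at 1.21, 0.618 and 0.958 CPM and then at 6.77, 6.67 and 6.29 CPM. The aldehyde oxidase Aox3 rose from 10.3, 3.79 and 4.95 CPM to 57.6, 14.2 and 77.9 CPM, least in replicate 2. The phosphorylase kinase subunit Phkg1, the metalloproteinase inhibitor Timp4, the incretin receptor Gipr and the unnamed genes 9630028B13Rik and 9330117O12Rik made up the rest of the 10, and the call of Gipr was lost without any 1 of the 6 libraries.

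**Figure D2:**
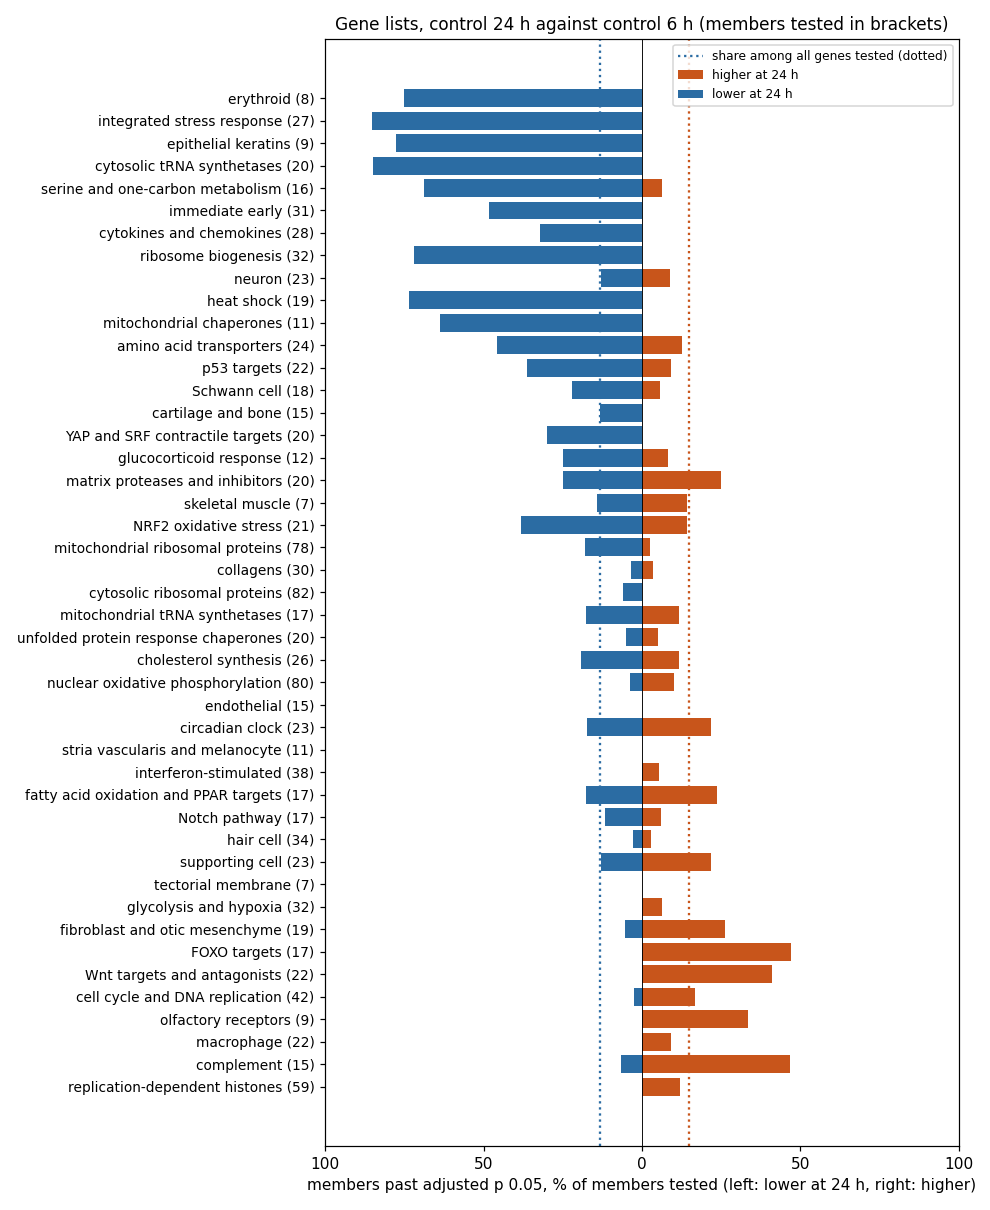
For each gene list except that of neutrophil genes (number of members tested in brackets), the bars give the percentage of its tested members past an adjusted p of 0.05. Members lower at 24 h are to the left and those higher to the right. Dotted lines mark the same shares over all genes tested, 13.2% and 14.8%, and lists are ordered by their median log2 fold change. The bars of 23 of 27 integrated stress response genes and 17 of 20 cytosolic tRNA synthetases reach to the left.

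The integrated stress response stood out for the number of its members that were lower at 24 h. Of 27 members, all tested, 23 fell and 0 rose, against 13.2% lower among all genes, and the median log2 fold change was -1.90. The summed level of the list was 3907 to 4680 CPM at 6 h and 1126 to 1557 CPM at 24 h. Atf4 (Entrez 11911), the transcription factor of the pathway, was at 360, 514 and 436 CPM at 6 h and at 142, 120 and 121 CPM at 24 h (log2 fold change -1.77, SE 0.26, adjusted p = 9.36e-05). Its partner and target Ddit3, the stress factor CHOP, was at 55.2, 60.2 and 68.2 CPM and then at 31.2, 19.0 and 17.9 CPM. The lowest library at 6 h lay above the highest at 24 h for both genes, and the same was true of the targets that follow. Asns (Entrez 27053), which makes asparagine, was at 307, 220 and 333 CPM at 6 h and at 31.6, 26.6 and 19.2 CPM at 24 h, 11.1-fold lower (log2 fold change -3.47, SE 0.27, adjusted p = 4.84e-07). Trib3, a pseudokinase that feeds back on the pathway, fell from 50.6, 69.9 and 67.6 CPM to 14.2, 10.6 and 5.33 CPM. Psat1, of serine synthesis, fell from 459, 376 and 461 CPM to 102, 144 and 89.0 CPM. Members that the rule for named genes did not pick, and that were chosen after their values were seen, included Chac1, which degrades glutathione, at 47.9, 89.2 and 72.2 CPM and then 13.6, 4.49 and 2.10 CPM. Fgf21, a secreted metabolic hormone of stressed mitochondria and liver, was at 11.6, 9.44 and 20.1 CPM and then at 1.93, 0.661 and 1.22 CPM. Only Cebpb, Ddit4, Gdf15 and Vldlr of the list did not pass, with log2 fold changes of -0.92, -0.02, -1.57 and -0.33. With any 1 control library left out, 22 or 23 members were lower.

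The promoters of several of these genes hold the sequence to which ATF4 with a C/EBP partner is known to bind, the C/EBP-ATF response element, searched here on both strands as TGATGNAA. In the 250 bases before the transcript start given by RefSeq (build GRCm38.p6), 8 of the 22 members with a promoter sequence held it (36.4%), against 314 of 12624 genes tested (2.49%). Of the 8, 7 were called, and of all 22, 18 were. Of the cytosolic tRNA synthetases 3 of 13 did (23.1%), of which Aars and Gars are on both lists and already counted among the 8, and of the mitochondrial ones 0 of 14. The motif was added after the changes were seen, and a match is a stretch of letters and not a measured binding site. The 4 shown are the leading enzyme of asparagine synthesis, the glutathione-degrading Chac1, the cystine importer Slc7a11, which has the motif on both strands, and the threonyl-tRNA synthetase Tars; capitals mark the motif or its complement, and each runs 5′ to 3′ towards the start.
Asns, chr6:7693210-7693459, minus strand: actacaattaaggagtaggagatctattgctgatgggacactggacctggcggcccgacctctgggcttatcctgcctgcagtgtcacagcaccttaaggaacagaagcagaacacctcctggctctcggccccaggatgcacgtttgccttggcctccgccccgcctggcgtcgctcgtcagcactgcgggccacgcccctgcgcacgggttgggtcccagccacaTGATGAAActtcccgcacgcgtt
Chac1, chr2:119350992-119351241, plus strand: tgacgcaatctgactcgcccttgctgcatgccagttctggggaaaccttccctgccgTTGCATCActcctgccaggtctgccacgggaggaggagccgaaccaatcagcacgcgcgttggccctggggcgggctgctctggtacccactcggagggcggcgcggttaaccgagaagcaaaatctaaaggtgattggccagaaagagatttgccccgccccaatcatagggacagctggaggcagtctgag
Slc7a11, chr3:50443614-50443863, minus strand: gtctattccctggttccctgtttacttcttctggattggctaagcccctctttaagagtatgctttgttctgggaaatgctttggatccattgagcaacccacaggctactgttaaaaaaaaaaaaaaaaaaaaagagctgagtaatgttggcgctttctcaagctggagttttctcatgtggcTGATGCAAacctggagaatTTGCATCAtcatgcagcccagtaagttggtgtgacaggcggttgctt
Tars, chr15:11399659-11399908, minus strand: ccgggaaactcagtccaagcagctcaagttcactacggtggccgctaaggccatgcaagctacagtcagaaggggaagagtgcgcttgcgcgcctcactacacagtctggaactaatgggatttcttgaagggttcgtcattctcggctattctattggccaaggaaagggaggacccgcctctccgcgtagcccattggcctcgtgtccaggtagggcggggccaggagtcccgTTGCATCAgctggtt
Slc7a11 was at 180, 204 and 270 CPM at 6 h and at 68.9, 20.4 and 65.7 CPM at 24 h, and Tars was at 193, 275 and 238 CPM and then at 65.5, 63.5 and 63.4 CPM.

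Most enzymes that load tRNAs with amino acids in the cytosol were lower at 24 h. This list and those of serine and one-carbon metabolism, amino acid transporters, ribosome biogenesis, mitochondrial chaperones, FOXO targets and Wnt genes were drawn up after the values had been seen, so their counts are descriptions. The other lists were written with earlier results of these data known, so their counts are descriptions too. Of 20 cytosolic synthetases 17 were lower and 0 higher, against 13.2% lower among all genes. The median log2 fold change was -1.31, and the lower count was 17 without any 1 of the control libraries. Gars, the glycyl-tRNA synthetase, was at 293, 312 and 338 CPM at 6 h and at 77.5, 72.8 and 65.3 CPM at 24 h, 4.37-fold lower (log2 fold change -2.13, SE 0.19, adjusted p = 7.90e-07). Mars1, for methionine, fell from 175, 152 and 185 CPM to 52.7, 55.4 and 50.7 CPM. The lowest library at 6 h lay well above the highest at 24 h for both. Dars, Farsa and Qars, for aspartate, phenylalanine and glutamine, did not pass, with log2 fold changes of 0.36, -0.21 and 0.01. Of the 17 mitochondrial synthetases 3 were lower and 2 higher (median -0.04), 29.4% called beside 28.0% of all genes. The difference between the lists was not tested. Mars2 was at 14.5, 23.7 and 19.4 CPM and then at 6.68, 8.32 and 8.21 CPM. Without replicate 2 at 6 h, 1 mitochondrial synthetase was higher.

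Of 16 genes of serine and one-carbon metabolism, which supplies carbon for purines, thymidylate and methylation, 11 were lower and 1 was higher (median -1.22). Among all genes tested, 13.2% were lower and 14.8% were higher. Mthfd2, the mitochondrial folate dehydrogenase that tumours and activated cells use, was at 133, 184 and 169 CPM at 6 h and at 25.4, 14.4 and 12.4 CPM at 24 h (log2 fold change -3.22, SE 0.41, adjusted p = 2.03e-05). Psph, the last step of serine synthesis, fell from 80.0, 61.9 and 85.3 CPM to 20.8, 27.0 and 24.1 CPM, and Mthfd1, the cytosolic folate enzyme, from 74.3, 75.2 and 65.9 CPM to 28.6, 31.2 and 29.1 CPM. Several genes of this list, such as Mthfd2 and Psat1, are also on the stress response list, so the counts are not separate. Of 24 amino acid transporters 11 were lower and 3 higher (median -0.47), 58.3% called beside 28.0% of all genes. The arginine and lysine importers were among the deepest. Slc7a3 was at 60.5, 29.3 and 54.4 CPM and then at 7.74, 6.87 and 4.02 CPM, and Slc7a1 at 295, 391 and 344 CPM and then at 56.7, 50.7 and 39.6 CPM. Slc38a9, the arginine sensor of the lysosome, rose from 23.6, 25.2 and 29.5 CPM to 43.4, 45.9 and 45.9 CPM. The 3 higher transporters were 1 or 4 when a control library was left out.

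Genes that build ribosomes fell as well, and few ribosomal proteins passed. Of 32 ribosome biogenesis genes (RNA polymerase I subunits, box C/D proteins and processome factors) 23 were lower and 0 higher, against 13.2% lower among all genes. The median log2 fold change was -1.04, and 19 were lower without replicate 2 at 6 h. Nop56, a core protein of the particles that methylate ribosomal RNA, was at 127, 209 and 135 CPM at 6 h and at 26.9, 34.1 and 31.5 CPM at 24 h (log2 fold change -2.35, SE 0.27, adjusted p = 8.54e-06). Rrp12, an export factor of the precursor ribosome, fell from 63.4, 103 and 81.5 CPM to 13.6, 18.1 and 14.7 CPM. Polr1a, the large subunit of RNA polymerase I, fell from 153, 192 and 160 CPM to 48.6, 66.3 and 48.0 CPM. The E-box CACGTG, the site of Myc and of the clock factors, was present in the promoter of 5 of 27 of these genes (18.5%) and of 1171 of 12624 genes (9.28%). Of the 5, 4 were called, and of all 27, 21 were. Of 82 cytosolic ribosomal protein genes 5 were lower and 0 higher (median -0.09), 6.1% called beside 28.0% of all genes. One of the 5, Rps23, had only 2 to 29 counts per library, and reads of ribosomal proteins and their pseudogenes may be split by the counting. Of 78 mitochondrial ribosomal proteins 14 were lower and 2 higher (median -0.13), 20.5% called beside 28.0% of all genes, among them Mrps18b, from 23.1, 25.9 and 22.0 CPM to 9.58, 10.7 and 9.52 CPM. The lower count was 9 without replicate 2 at 6 h and 8 without replicate 1 at 24 h.

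Chaperones of the heat shock response were lower at 24 h. Of 19 members 14 fell and 0 rose (median -0.63), against 13.2% lower among all genes. The fitted change of all 19 was below 0. Without replicate 1 at 6 h the count of members that fell was 9. Hspd1 (Entrez 15510), the HSP60 of the mitochondrial matrix, was at 186, 261 and 209 CPM at 6 h and at 82.2, 89.6 and 82.7 CPM at 24 h (log2 fold change -1.37, SE 0.14, adjusted p = 3.29e-06). Hsph1, a nucleotide exchange factor of HSP70, fell from 169, 233 and 143 CPM to 75.9, 80.3 and 79.1 CPM. Stip1, which joins HSP70 to HSP90, fell from 136, 144 and 125 CPM to 74.7, 80.1 and 77.3 CPM. The defining inducible genes Hspa1a and Hspa1b did not pass. These near-identical genes, whose reads the counting may split, lay as follows. Hspa1a was at 18.4 to 48.2 CPM at 6 h and at 7.16 to 19.9 CPM at 24 h, and Hspa1b at 56.2, 39.5 and 88.6 CPM and then at 26.9, 35.3 and 19.3 CPM. Dnajb1, their co-chaperone, was at 45.6 to 48.5 CPM and then at 39.5 to 41.9 CPM, and did not pass either. Of 11 mitochondrial chaperones and proteases 7 were lower and 0 higher (median -0.51), against 13.2% lower among all genes. They were led by Hspa9, the matrix HSP70, from 637, 590 and 647 CPM to 219, 180 and 166 CPM.

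Hspd1 and its partner Hspe1 are transcribed in opposite directions from a shared promoter, and Hspe1 fell too, from 46.8, 58.7 and 51.0 CPM to 25.8, 32.3 and 25.1 CPM. The core of the heat shock element was searched as TTCNNGAA, which reads the same on both strands. It was present in 3 of the 15 heat shock promoters given (20.0%), all of genes that fell, and in 890 of 12624 genes (7.05%). Of all 15 genes, 10 were called. The matches of Hspd1 and Hspe1 are the same 2 sites in the shared promoter, so the 3 rest on 2 separate sequences. The Hspd1 promoter, shown because its 2 matches lie side by side between both genes, reads as follows with the matches in capitals.
Hspd1, chr1:55087933-55088182, minus strand: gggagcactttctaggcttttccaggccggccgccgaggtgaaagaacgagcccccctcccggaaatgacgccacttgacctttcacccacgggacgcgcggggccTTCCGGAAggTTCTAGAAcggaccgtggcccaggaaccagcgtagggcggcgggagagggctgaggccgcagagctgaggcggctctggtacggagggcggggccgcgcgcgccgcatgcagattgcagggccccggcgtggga

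Immediate early and cytokine genes that passed were all higher at 6 h. Of 31 immediate early genes tested 15 were lower at 24 h and 0 higher (median -1.08), against 13.2% lower among all genes. The lower count was 11 without replicate 2 at 6 h. The deepest was Fosl1 (Entrez 14283), the AP-1 subunit FRA1, at 17.4, 35.6 and 12.4 CPM at 6 h and at 0.703, 0.330 and 0.611 CPM at 24 h (log2 fold change -5.32, SE 0.74, adjusted p = 4.99e-05). The growth regulator Myc was at 32.4, 52.0 and 28.6 CPM and then at 7.38, 9.58 and 6.55 CPM. Dusp5, a phosphatase that ends ERK signalling in the nucleus, fell from 20.4, 31.5 and 23.3 CPM to 4.75, 3.83 and 3.14 CPM. Atf3 fell from 38.9, 61.1 and 46.1 CPM to 22.6, 14.2 and 15.4 CPM. The fastest members did not pass. Fos was at 39.8, 79.4 and 44.4 CPM at 6 h and at 32.0, 21.3 and 18.9 CPM at 24 h (adjusted p = 0.0524), and Egr1 at 30.9, 76.1 and 29.1 CPM and then at 27.6, 23.4 and 21.8 CPM (adjusted p = 0.0982). In neither did the times overlap, and replicate 2 at 6 h was highest in every one of the genes named in this paragraph.

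**Figure D3:**
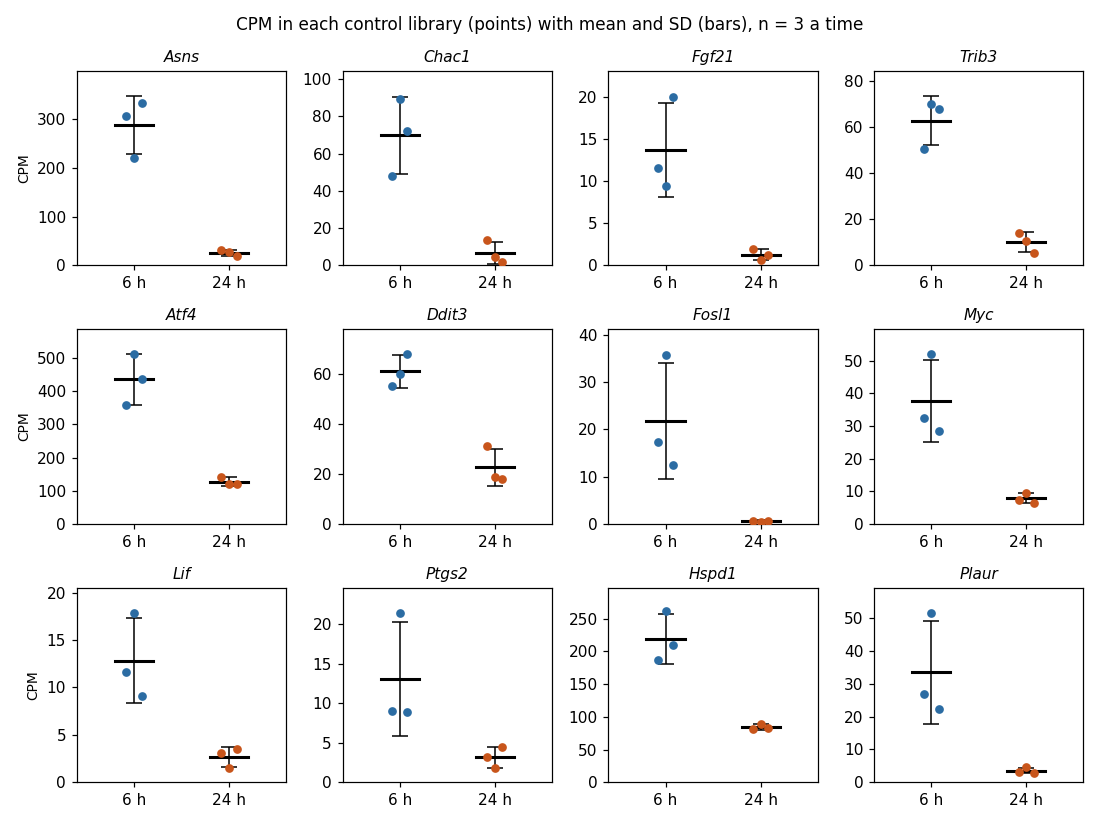
CPM of 12 stress, growth and wound genes in each control library (points; blue 6 h, orange 24 h), with the mean (line) and SD (bars), n = 3 at each time, on linear axes that start at 0. In every panel the 3 libraries at 24 h lie below the 3 at 6 h; replicate 2, the middle point of each set, is often the highest at 6 h.

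Of 28 cytokine and chemokine genes tested 9 were lower and 0 higher (median -1.08), 32.1% called beside 28.0% of all genes. The interleukin 6 family cytokine Lif was at 11.6, 17.8 and 9.10 CPM at 6 h and at 3.08, 1.52 and 3.49 CPM at 24 h. Ptgs2, the inducible cyclooxygenase, was at 9.01, 21.4 and 8.87 CPM and then at 3.25, 1.78 and 4.45 CPM, and Il11 at 4.58, 6.44 and 2.88 CPM and then at 0.879, 1.12 and 2.10 CPM. The monocyte chemokine Ccl2 was at 7.32, 51.1 and 8.39 CPM at 6 h and at 0.527, 1.32 and 5.50 CPM at 24 h, so most of its 6 h mean lay in replicate 2. Without that library the calls of Ccl2, Ccl7 and Il6 were lost, with log2 fold changes of -1.70, -2.94 and -1.14, and 3 members of the list were lower. The count was 4 without replicate 1 at 24 h and 5 without replicate 2 at 24 h. Il6 itself had 6, 45 and 3 counts at 6 h and 0, 2 and 4 at 24 h.

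Genes that control proteolysis around the cell moved in both directions, 5 lower and 5 higher of 20 tested (median -0.19), 50.0% called beside 28.0% of all genes. Those lower were of the plasminogen system and of tissue inhibitors. Plaur, the receptor of urokinase, was at 26.9, 51.3 and 22.2 CPM and then at 3.25, 4.56 and 2.97 CPM (log2 fold change -3.21, SE 0.47, adjusted p = 8.09e-05). The tissue inhibitor Timp1 was at 63.0, 111 and 38.5 CPM and then at 10.4, 9.05 and 13.4 CPM. Timp3, an inhibitor bound to the matrix, fell from 1237, 1211 and 791 CPM to 510.5, 467 and 492 CPM. Of the 5 higher, Timp4 was at 0.402, 0.441 and 0.240 CPM and then at 2.46, 1.19 and 3.75 CPM. Mmp3, stromelysin, was called higher by 1 library only, with 34, 25 and 4 counts at 6 h and 7, 3 and 740 at 24 h. Its log2 fold change was 3.63 with all libraries and -2.14 without replicate 3 at 24 h. The count of higher members was 2 or 3 without any 1 library other than replicate 2 at 24 h. The AP-1 site TGAGTCA was in 4 of the 12 promoters given for this list (33.3%), in 0 of 24 for the immediate early genes, and in 4.25% of all. Of the 4, 2 were called, and of all 12, 7 were.

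Of 9 epithelial keratins tested 7 were lower and 0 higher (median -1.46), against 13.2% lower among all genes. At least 5 were lower without any 1 library. Krt8, the main keratin of simple epithelia, was at 211, 315 and 243 CPM at 6 h and at 67.8, 84.2 and 68.6 CPM at 24 h (log2 fold change -1.80, SE 0.19, adjusted p = 3.94e-06), and its partner Krt18 at 190, 266 and 181 CPM and then at 70.0, 82.6 and 67.0 CPM. Of 20 targets of YAP and SRF, which read cell stretch and actin, 6 were lower and 0 higher (median -0.32), 30.0% called beside 28.0% of all genes. Thbs1, a wound matrix protein, was at 246, 493 and 565 CPM and then at 141, 193 and 136 CPM, and Tpm1 at 176, 232 and 172 CPM and then at 110, 118 and 109 CPM, while the defining YAP target Ccn2, at 34.2, 64.5 and 99.9 CPM and then 44.0, 69.6 and 37.9 CPM, overlapped. Collagens gave 1 higher, Col27a1, and 1 lower, Col12a1, of 30 (median -0.09), 6.67% called beside 28.0% of all genes. The call of Col27a1 was lost without any 1 of the 6 libraries and that of Col12a1 without replicate 2 or 3 at 6 h or replicate 1 or 3 at 24 h. The cartilage collagen Col2a1 was at 7139, 7650 and 4617 CPM at 6 h and at 6601, 7277 and 5314 CPM at 24 h.

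The remaining stress lists were mixed. Of 21 targets of NRF2, the factor that answers oxidants, 8 were lower and 3 higher (median -0.13), 52.4% called beside 28.0% of all genes, with 5 lower without replicate 2 of either time and 1 higher without replicate 2 or 3 at 6 h. Srxn1, which repairs peroxiredoxins, was at 159, 568 and 135 CPM at 6 h and at 23.1, 29.3 and 23.8 CPM at 24 h (log2 fold change -3.50, SE 0.57, adjusted p = 0.000225; -2.53 without replicate 2 at 6 h). Txnrd1, the cytosolic thioredoxin reductase, fell from 189, 212 and 183 CPM to 108, 119 and 104 CPM, and Gsr, the glutathione reductase, from 67.6, 71.3 and 70.9 CPM to 41.8, 39.2 and 47.7 CPM. Nqo1, often used as the readout of NRF2, went the other way, from 14.6, 5.47 and 5.27 CPM to 33.2, 30.0 and 32.5 CPM, a call that was lost without replicate 2 or replicate 3 at 6 h. Hmox1, at 73.5, 96.8 and 46.6 CPM and then 36.4, 26.4 and 48.5 CPM, overlapped, and its call was lost without replicate 2 at 6 h or without replicate 1 or 2 at 24 h. Of 22 targets of p53, 8 were lower and 2 higher (median -0.42), 45.5% called beside 28.0% of all genes, and 1 was higher without replicate 2 or 3 at 6 h or replicate 1 or 3 at 24 h. The nuclease Aen fell from 33.9, 45.0 and 32.7 CPM to 7.91, 11.0 and 10.0 CPM, and the cell cycle inhibitor Cdkn1a from 162, 140 and 87.6 CPM to 66.5, 46.4 and 49.0 CPM, while the defining targets Mdm2 and Ccng1 did not pass. The count of lower p53 targets was 5 without replicate 1 or 2 at 6 h, or replicate 1 or 3 at 24 h.

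Of 20 chaperones of the unfolded protein response in the endoplasmic reticulum 1 was lower and 1 higher (median -0.03), Dnajb9 and Calr, 10.0% called beside 28.0% of all genes. The higher count was 0 to 4 and the lower count 0 to 3 with 1 library left out, with 4 higher without replicate 3 at 6 h, 0 higher without replicate 2 at 6 h, 3 lower without replicate 1 at 24 h and 0 lower without replicate 1 at 6 h or replicate 2 or 3 at 24 h. Hspa5, the chaperone BiP, was at 1007, 812 and 1071 CPM at 6 h and at 1019, 759 and 738 CPM at 24 h and did not pass. Of 26 cholesterol synthesis genes 5 were lower and 3 higher (median -0.03), 30.8% called beside 28.0% of all genes. The lower ones included Sqle, the squalene epoxidase, from 121, 107 and 92.2 CPM to 84.4, 62.5 and 69.8 CPM. Tm7sf2, a sterol reductase, rose from 10.6, 5.91 and 9.18 CPM to 17.8, 19.8 and 22.4 CPM. Between 2 and 3 of the list were lower without any 1 library other than replicate 3 at 6 h, and 2 to 5 were higher without 1 library, with 5 without replicate 1 at 6 h and 2 without replicate 2 at 6 h or replicate 1 at 24 h. The sterol regulatory element TCACNCCAC was in 1 of 18 promoters given (5.56%), that of a gene not called, and in 1.23% of all. Of 12 glucocorticoid response genes 3 were lower and 1, Zbtb16, higher (median -0.26), 33.3% called beside 28.0% of all genes. The call of Zbtb16 was lost without any 1 of the 6 libraries. The lower count was 2 without replicate 2 at 6 h or any 1 library at 24 h. Fkbp5 was at 24.6, 21.8 and 24.4 CPM and then at 11.0, 13.6 and 11.7 CPM, and Tsc22d3 did not pass. Of 32 genes of glycolysis and hypoxia 2 were higher and 0 lower (median 0.33), Aldoc and Pdk1, the latter lost without any 1 library other than replicate 2 at 24 h, and Slc2a1 and Vegfa did not pass. This is 6.25% called beside 28.0% of all genes, and in the other fits on all 6 libraries 1 to 7 were higher and 0 to 4 lower. The median ranged from -0.03 to 0.53 over the alternatives. Of 38 interferon-stimulated genes 2 were higher and 0 lower (median 0.08), 5.26% called beside 28.0% of all genes, Parp9 and Psmb9, and both calls were lost without replicate 1 or 3 at 24 h.

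Of 17 targets of FOXO, the factors that are kept out of the nucleus by insulin and growth factor signalling, 8 were higher and 0 lower (median 0.37), against 14.8% higher among all genes, and 6 to 9 without 1 library. Txnip (Entrez 56338), which binds thioredoxin and limits glucose uptake, was at 59.5, 90.1 and 79.3 CPM at 6 h and at 281, 308 and 236 CPM at 24 h (log2 fold change 1.85, SE 0.23, adjusted p = 1.76e-05). Pik3ip1, an inhibitor of phosphoinositide 3-kinase, rose from 18.4, 10.8 and 14.5 CPM to 41.8, 39.4 and 52.6 CPM. The sestrin Sesn3 rose from 58.5, 57.0 and 59.3 CPM to 122, 162 and 115 CPM and Sesn1 from 24.5, 21.1 and 24.0 CPM to 46.2, 62.1 and 47.8 CPM. Their relative Sesn2, a member of the integrated stress response list, fell by 1.70 on the log2 scale. Of 22 Wnt targets, modulators and antagonists tested 9 were higher and 0 lower (median 0.49), against 14.8% higher among all genes. The higher count was 7 to 10 without 1 library. Lef1, the transcription factor of the pathway, rose from 41.5, 32.9 and 41.5 CPM to 68.3, 64.0 and 66.4 CPM, the feedback ligase Rnf43 from 40.1, 27.4 and 47.4 CPM to 78.4, 66.7 and 70.9 CPM, and the corepressor Tle2 from 14.5, 11.9 and 16.3 CPM to 51.1, 64.4 and 55.3 CPM. In each of these the libraries of the times did not overlap.

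Of 15 complement genes tested 7 were higher and 1, C5ar1, lower (median 0.78), 53.3% called beside 28.0% of all genes. In the other fits on all 6 libraries 2 to 7 were higher, and 0 were lower without replicate 2 at 6 h or any 1 library at 24 h. C4b was at 16.1, 23.4 and 9.74 CPM at 6 h and at 85.5, 93.4 and 115 CPM at 24 h (log2 fold change 2.58, SE 0.70, adjusted p = 0.00969), and the inhibitor Serping1 at 10.6, 14.2 and 8.71 CPM and then at 19.5, 16.9 and 34.3 CPM. C3 and Cfb rested on 1 library. C3 had 24, 43 and 9 counts at 6 h and 17, 35 and 424 at 24 h. Without replicate 3 at 24 h its log2 fold change went from 2.66 to -0.15 and that of Cfb from 1.50 to 0.30, neither of them called, and 3 members were higher. The count was also 3 without replicate 1 at 6 h. Mmp3 was high in the same library. Of 17 genes of fatty acid oxidation and PPAR targets tested 4 were higher and 3 lower (median 0.10), 41.2% called beside 28.0% of all genes. Acaa2, a thiolase, rose from 23.6 to 28.0 CPM at 6 h to 50.3 to 53.5 CPM at 24 h. Pdk4 was at 13.8, 33.2 and 11.9 CPM and then at 10.3, 6.54 and 11.1 CPM, and its call was lost without replicate 2 of either time, when 0 members were lower. The count was 1 without replicate 1 or 3 at 24 h. Cpt1a and Angptl4 did not pass.

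Clock genes are described here member by member. CLOCK and BMAL1 (Arntl) bind E-boxes and switch on the Per and Cry repressors and the factors Dbp, Tef and Nr1d1, the PAR factors bind D-boxes, and Nfil3 opposes them there. With 1 sampling time at each end, a phase of the cycle cannot be read, and the time of day of each collection was not given in the sources used here. Of 23 members 5 were higher and 4 lower (median 0.01), 39.1% called beside 28.0% of all genes. Per3 (Entrez 18628) was the clearest, at 45.0, 46.2 and 44.5 CPM at 6 h and at 186, 134 and 182 CPM at 24 h, 3.70-fold higher (log2 fold change 1.89, SE 0.17, adjusted p = 1.18e-06). The PAR factors rose, Dbp from 12.1, 8.91 and 9.10 CPM to 33.9, 22.4 and 34.6 CPM and Tef from 59.4, 63.3 and 73.1 CPM to 162, 152 and 179 CPM, while Hlf, the other of them, at 50.3, 71.2 and 41.9 CPM and then 128, 112 and 107 CPM, did not pass (adjusted p = 0.0592). The nuclear receptor Nr1d2 rose from 57.1, 81.1 and 48.4 CPM to 130, 90.6 and 140 CPM. On the other side, the D-box repressor Nfil3 fell from 35.2, 46.5 and 37.0 CPM to 24.7, 12.2 and 15.8 CPM, and Cry1, a late repressor of the loop, from 60.6, 68.5 and 59.8 CPM to 30.6, 25.0 and 31.6 CPM. Arntl fell from 95.2, 90.3 and 77.0 CPM to 53.5, 34.2 and 53.3 CPM. Ciart was at 15.0, 12.7 and 16.7 CPM and then at 13.7, 6.01 and 6.55 CPM, which overlapped, and its call was lost without replicate 1 or 3 at 6 h or without replicate 2 or 3 at 24 h.

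The other 14 clock genes did not pass. Clock was at 184 to 213 CPM and then at 127 to 178 CPM. Per1 was at 45.8, 32.5 and 32.9 CPM and then at 48.5, 35.6 and 35.6 CPM, Per2 at 14.3, 22.1 and 21.9 CPM and then at 32.2, 18.8 and 20.9 CPM, and Nr1d1 at 22.1, 20.1 and 7.19 CPM and then at 21.0, 8.98 and 18.1 CPM. In each of these 3 the libraries of the times overlapped. The log2 fold changes of the remaining members were 0.34 for Cry2, 0.60 for Rora, -0.12 for Rorb, -0.52 for Npas2, -0.39 for Bhlhe40, 0.13 for Bhlhe41, -0.12 for Csnk1d, 0.01 for Csnk1e and -0.21 for Usp2.

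**Figure D4:**
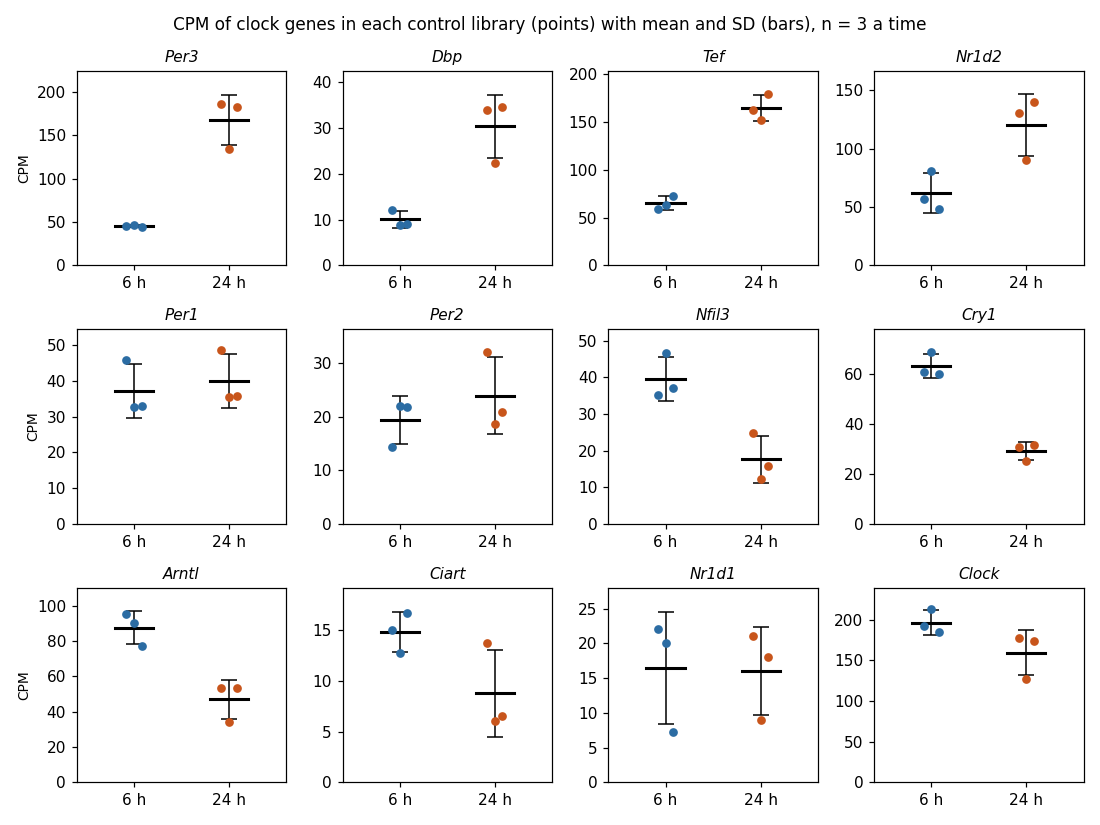
CPM of 12 of the 23 clock genes in each control library (points; blue 6 h, orange 24 h), with the mean (line) and SD (bars), n = 3 at each time. Per3, Dbp, Tef and Nr1d2 lie higher at 24 h with no overlap and Nfil3, Cry1 and Arntl lower with no overlap; the points of Per1, Per2 and Nr1d1 overlap.

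The E-box CACGTG was in the promoter of 5 of the 19 clock genes with a sequence (26.3%), against 9.28% of all genes, and the D-box, searched as TTANNTAA on both strands, in 3 of 19 (15.8%), against 4.28%. Of the 8 called members with a sequence 3 held the E-box and 2 the D-box. The 3 shown are that of the gene that rose most, with 2 D-boxes, and those of the repressors Cry1, with 1 E-box, and Ciart, with 3, both of which fell; capitals mark the motif.
Per3, chr4:151044666-151044915, minus strand: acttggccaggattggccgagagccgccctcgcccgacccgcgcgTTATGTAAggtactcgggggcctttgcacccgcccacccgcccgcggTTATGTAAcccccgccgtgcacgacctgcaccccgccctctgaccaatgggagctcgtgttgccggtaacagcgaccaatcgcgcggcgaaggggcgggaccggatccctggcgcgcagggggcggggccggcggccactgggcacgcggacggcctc
Cry1, chr10:85185055-85185304, minus strand: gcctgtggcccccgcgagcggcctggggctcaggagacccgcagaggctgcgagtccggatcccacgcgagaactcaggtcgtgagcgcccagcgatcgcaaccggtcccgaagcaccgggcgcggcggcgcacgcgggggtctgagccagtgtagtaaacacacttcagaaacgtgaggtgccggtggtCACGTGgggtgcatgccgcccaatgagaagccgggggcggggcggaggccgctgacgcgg
Ciart, chr3:95882229-95882478, minus strand: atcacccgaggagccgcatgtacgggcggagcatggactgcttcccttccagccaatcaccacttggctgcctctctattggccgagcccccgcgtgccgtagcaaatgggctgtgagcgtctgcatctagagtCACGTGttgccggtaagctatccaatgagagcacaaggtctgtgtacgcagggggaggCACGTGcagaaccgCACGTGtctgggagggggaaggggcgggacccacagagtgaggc
Genes with an E-box thus stood on both sides of the contrast, since Tef also has one.

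Cell type markers were examined because an explant holds many cell types, and in bulk RNA fewer cells of a type and less RNA per cell cannot be told apart. Of 34 hair cell genes, 1 was higher and 1 lower (median 0.26), 5.88% called beside 28.0% of all genes. Without replicate 3 at 6 h 6 were higher, without replicate 2 at 6 h or any 1 library at 24 h 0 were lower, and the median ranged from -0.05 to 0.70 over the alternatives. The summed level was 841 to 1619 CPM at 6 h and 1369 to 1798 CPM at 24 h. Of the defining genes, Myo7a was at 76.7, 41.9 and 95.7 CPM and then at 93.3, 94.9 and 82.1 CPM, Pou4f3 at 12.1, 6.00 and 15.1 CPM and then at 9.58, 8.32 and 16.1 CPM, and Otof at 125, 63.5 and 204 CPM and then at 171, 132 and 156 CPM. In all of these the times overlapped, and replicate 2 at 6 h was lowest. The outer hair cell motor Slc26a5 was at 40.5, 28.5 and 22.8 CPM and then at 43.6, 5.62 and 60.4 CPM, low in replicate 2 at 24 h. The higher gene was the myosin Myo6, from 304, 246 and 410 CPM to 569, 477 and 580 CPM. The lower one was Slc17a8, the vesicular glutamate transporter of inner hair cells, from 62.0, 87.9 and 41.0 CPM to 23.9, 22.2 and 23.2 CPM, a call that was lost without replicate 2 at 6 h or without any 1 of the 24 h libraries. Of 7 tectorial membrane genes tested 0 passed (median 0.33).

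Of 23 supporting cell genes 5 were higher and 3 lower (median 0.27), 34.8% called beside 28.0% of all genes. The connexin Gjb6 rose from 86.4, 89.4 and 61.0 CPM to 207, 182 and 192 CPM, and its partner Gjb2, at 416, 377 and 318 CPM and then 630, 602 and 586 CPM, did not pass (adjusted p = 0.0949). Cd44 fell from 257, 312 and 198 CPM to 127, 68.4 and 132 CPM, a call that was lost without replicate 2 of either time. Sox2 and Fgfr3 overlapped. The 5 higher members were 1 to 3 without any 1 library other than replicate 3 at 6 h, with 1 left without replicate 2 at 6 h or replicate 1 at 24 h, and 1 was lower without replicate 2 at 6 h or replicate 3 at 24 h. Of 17 Notch pathway genes tested 1 was higher and 2 lower (median 0.11), 17.6% called beside 28.0% of all genes. Hes1 was at 23.2, 27.6 and 39.7 CPM and then at 18.9, 21.9 and 15.1 CPM, Dll1 was at 16.2 CPM in replicate 2 at 6 h and at 1.67 to 3.90 CPM elsewhere, and Hes5 and Hey1 did not pass. All 3 calls were lost without 1 or another of the libraries.

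Of 18 Schwann cell genes 4 were lower and 1 higher (median -0.41), which is 27.8% called beside 28.0%. Mag, an adhesion protein of myelin, was at 15.0, 25.4 and 11.2 CPM at 6 h and at 2.55, 4.16 and 1.48 CPM at 24 h, with no overlap. Sox10, a transcription factor on the list, was at 159, 110 and 167 CPM and then at 132, 154 and 121 CPM and did not pass. S100b (Entrez 20203), a calcium-binding protein on the list that other cells of the explant also express, rose from 68.3, 168 and 58.8 CPM to 538, 297 and 542 CPM. The call of Mag was lost without replicate 2 at 6 h or replicate 3 at 24 h, and the count of lower members was then 0. It was 1 without replicate 1 at 24 h and 2 without replicate 2 at 24 h. Of 23 neuronal genes 3 were lower and 2 higher (median -0.76), 21.7% called beside 28.0% of all genes. The higher count was 0 without replicate 1 or 2 at 6 h. The lower count was 7 without replicate 2 at 24 h and 1 without replicate 1 or 3 at 24 h. Tubb3 was at 37.6, 26.4 and 26.3 CPM and then at 7.91, 19.2 and 7.86 CPM, Snap25 at 26.9, 46.3 and 25.9 CPM and then at 6.07, 21.3 and 5.24 CPM, and Nefl at 36.8, 53.3 and 43.0 CPM and then at 13.8, 67.7 and 10.1 CPM. Replicate 2 at 24 h was the highest of its time in all 3, and for Nefl the times overlapped. The call of Tubb3 was lost without replicate 1 at 6 h or without replicate 1 or 3 at 24 h.

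Of 22 macrophage genes 2 were higher and 0 lower (median 0.71), 9.09% called beside 28.0% of all genes, and 1 to 8 were higher in the other fits on all 6 libraries. Lyz2 was at 6.35, 12.1 and 5.75 CPM and then at 22.5, 48.5 and 40.9 CPM, while Csf1r and Cd68 overlapped, and neither call held without replicate 1 or replicate 3 at 6 h. Neutrophil genes were near the limit of detection, with 2 of 12 tested and Ly6g at 0 to 2 counts. Camp was at 0.559 to 0.794 CPM at 6 h and at 0.925 to 3.93 CPM at 24 h, and its call was lost without replicate 1 or 3 at 6 h or replicate 3 at 24 h. Of 8 erythroid genes tested 6 were lower and 0 higher (median -2.03), against 13.2% lower among all genes. Both counts were the same without any 1 library. The globin Hbb-bs was at 66.4, 162 and 84.7 CPM and then at 16.7, 33.9 and 25.0 CPM, and the haem enzyme Alas2 at 3.78, 10.8 and 5.51 CPM and then at 1.58, 1.19 and 1.57 CPM, and reads of near-identical globin copies may be split. Of 15 endothelial genes 0 passed (median 0.01), and Pecam1 was at 38.1, 76.3 and 28.1 CPM and then at 36.3, 52.6 and 27.6 CPM. Of 11 stria vascularis and melanocyte genes tested 0 passed.

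Of 19 genes of fibroblasts and otic mesenchyme 5 were higher and 1 lower (median 0.33), 31.6% called beside 28.0% of all genes. The otic mesenchyme factors Tbx18 and Pou3f4 were higher, at 164, 217 and 165 CPM and then 322, 468 and 309 CPM and at 183, 217 and 166 CPM and then 318, 342 and 324 CPM, and Twist2 fell from 8.28, 6.53 and 6.71 CPM to 2.37, 2.77 and 2.62 CPM. The call of Pou3f4 was lost without any 1 of the 6 libraries and that of Tbx18 without replicate 1 or 3 at 6 h or replicate 2 at 24 h. The higher members were 1 to 3 without any 1 library, with 1 left without replicate 1 at 6 h. Of 15 cartilage and bone genes tested 2 were lower and 0 higher (median -0.34), 13.3% called beside 28.0% of all genes, Dmp1 and Bglap. The call of Bglap was lost without replicate 2 at 6 h or any 1 library at 24 h. It was at 16.8 CPM in replicate 2 at 6 h and at 0 to 1.28 CPM in the other libraries. The bone factor Sp7 and the cartilage proteoglycan Acan did not pass. Skeletal muscle genes were scarce, with a summed level of 3.22 to 8.04 CPM at 6 h and 4.36 to 7.38 CPM at 24 h. Of 7 tested 1, Actn3, was higher and 1, Myh8, lower, 28.6% called beside 28.0% of all genes. The call of Myh8 was lost without any 1 library other than replicate 3 at 6 h and that of Actn3 without replicate 3 at 24 h.

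Of 42 cell cycle and replication genes 7 were higher and 1 lower (median 0.53), 19.0% called beside 28.0% of all genes, and 35 had a fitted change above 0. Mki67 was at 31.4, 50.0 and 60.9 CPM and then at 57.0, 118 and 39.5 CPM, and neither it, Top2a nor Mcm2 passed. Rrm1, of nucleotide synthesis, rose from 25.8, 24.6 and 26.8 CPM to 42.3, 52.4 and 36.4 CPM, and Pola1 fell from 45.8, 54.9 and 50.3 CPM to 30.4, 38.9 and 29.6 CPM. The higher members were 1 to 3 without replicate 1 or 2 at either time, with 1 left without replicate 2 of either. The element TTTGAA was in 9 of 35 of their promoters (25.7%), against 13.2% of all, and of the 6 called members with a promoter 1 held it. Of 59 replication-dependent histone genes tested 7 were higher and 0 lower (median 0.83), 11.9% called beside 28.0% of all genes, and 3 to 11 were higher without 1 library. Of 80 nuclear genes of oxidative phosphorylation 8 were higher and 3 lower (median 0.01), 13.8% called beside 28.0% of all genes. Cox7a1 rose from 2.73, 4.23 and 3.27 CPM to 11.3, 5.29 and 8.55 CPM and Atp5b fell from 685, 676 and 674 CPM to 429, 491 and 479 CPM, and the higher members were 4 without replicate 2 at 6 h. Only 9 of 1120 olfactory receptor genes could be tested, of which 3 were higher at low counts (at most 2 counts a library at 6 h for Olfr12). This is 33.3% called beside 28.0% of all genes, and none of the 3 calls held without replicate 3 at 6 h.

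The same time contrast can be read in the 3 drug arms, which share no library with the controls. In GM 3954 genes differed between 24 and 6 h (24.2%), in PIO 4731 (29.0%) and in PIO+GM 5646 (34.6%). Of the 4564 genes called in CTRL, 3268 were called in the same direction in GM (71.6% of the CTRL genes and 82.7% of the GM genes) and 0 in the opposite one. For PIO these were 2999 (65.7% and 63.4%) and 3, and for PIO+GM 3183 (69.7% and 56.4%) and 4. In all 4 arms 2319 genes were called in 1 direction. The test of the difference itself, an interaction contrast of the CTRL change minus the change in each arm, called 0 genes for GM, PIO and PIO+GM by edgeR's quasi-likelihood test, with 125 (0.766%), 714 (4.38%) and 978 (5.99%) genes at an unadjusted p under 0.05. DESeq2 called 0, 1 and 12. A gene called in CTRL and in no drug arm (622 genes) is therefore not shown to differ between them. At 24 h the same-numbered libraries of different arms tended to deviate together, with correlations of 0.012 to 0.723 between CTRL and the drug arms. At 6 h these correlations were -0.19 to 0.287.

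**Figure D5:**
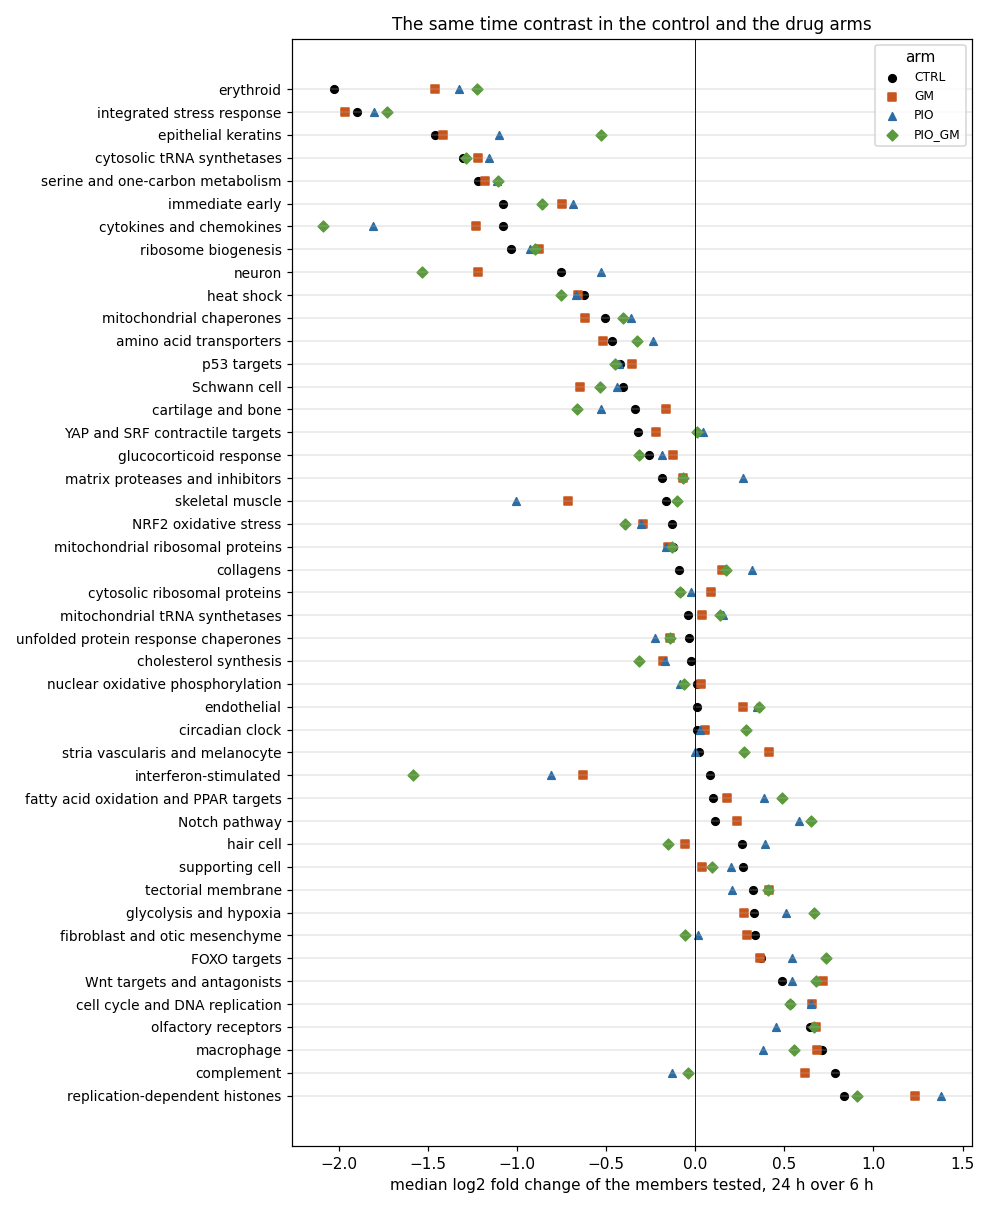
Median log2 fold change of 24 h over 6 h over the tested members of each gene list except that of neutrophil genes (rows, ordered by the CTRL value). The arms are control (circles), GM (squares), PIO (triangles) and PIO_GM (diamonds). The medians of the integrated stress response lie between -1.96 and -1.73 in the 4 arms, while those of the interferon-stimulated genes spread from -1.59 to 0.08.

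The median of the integrated stress response was -1.90 in CTRL, -1.96 in GM, -1.80 in PIO and -1.73 in PIO+GM, and the log2 fold changes of Asns were -3.47, -3.86, -3.26 and -3.44. Cytosolic tRNA synthetases had medians of -1.31, -1.22, -1.16 and -1.29, and heat shock genes of -0.63, -0.66, -0.67 and -0.75. The log2 fold changes of Per3 were 1.89, 1.87, 1.41 and 1.68 and those of Cry1 were -1.12, -0.89, -0.88 and -0.98. FOXO targets had medians of 0.37, 0.36, 0.54 and 0.73 and cytokines of -1.08, -1.23, -1.81 and -2.09. Those of the interferon-stimulated genes were 0.08 in CTRL, -0.63 in GM, -0.81 in PIO and -1.59 in PIO+GM, those of complement 0.78, 0.62, -0.13 and -0.04, and those of epithelial keratins -1.46, -1.41, -1.10 and -0.53. C3, which rested on 1 CTRL library, had log2 fold changes of 2.66, 0.06, -0.22 and 0.37, and Mmp3 of 3.63, -2.27, -4.71 and -3.72. In CTRL itself the interferon median ranged from -0.23 to 0.77 over the alternatives, that of complement from 0.30 to 0.92 and that of cytokines from -1.79 to -0.14. No gene passed the interaction test by edgeR, so these spreads are descriptions.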

How the data were processed

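Total RNA of the explants was sequenced by the authors from stranded libraries (TruSeq Stranded RNA, NextSeq 500), and the deposited values are raw counts per gene, made by the authors with STAR and the mouse build mm10 as the submitters' processing notes name them. Whether the counting used strand, and how reads with several positions were counted, is not given in the sources used here. No values were rescaled before the test. Genes were filtered with filterByExpr and scaled by TMM, and edgeR 4.0.16 (R 4.3.3) fitted the quasi-likelihood model with 1 mean for each of the 8 groups of 3 libraries, so that all 24 libraries shared the estimate of the spread. The contrast was control 24 h minus control 6 h, and p-values were adjusted over all 16317 genes by the Benjamini-Hochberg method. Fold changes are those of the fitted model at edgeR's default settings. Log2 CPM levels were computed with a prior count of 2. With a prior count of 0.5, the difference in mean log2 CPM between the times moved by up to 1.27 among named genes. No sign changed among 183.

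The members and the gene lists were chosen with earlier results of these data known. The genes named were the 10 largest changes in each direction with no overlap and a mean of at least 2 CPM at the higher time, the members of each list with the smallest p-values, its defining members and the clock genes. Some genes that the rule picks are not reported here. Others were chosen after their values were seen (Chac1, Fgf21, Slc7a11, Tars, Sesn2, Dars, Farsa, Qars, Cebpb, Ddit4, Gdf15 and Vldlr). The lists said to be added, and the motifs TGATGNAA and, for ribosome biogenesis, CACGTG, were also chosen after seeing the data. Promoters came from RefSeq (GRCm38.p6). The main edgeR fit was tested on simulated data, and the alternative fits were not. Alternatives were fitted with limma 3.58.1 and DESeq2 1.42.0, with other scalings and filters, and with libraries left out.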

Additional observations from a re-analysis of the deposited data

How the results depend on the processing

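The count of genes that differed between control 24 and 6 h (4564) lay between 3521 and 6300 under every alternative scaling, filter, test and covariate run on all 6 control libraries. The lowest came from the 6 libraries alone with a replicate block and the highest from removal of a GC trend with the block, in which 3306 genes were lower against 2151. Leaving out 1 control library gave 2665 to 4295 genes, 1338 to 2258 of them higher and 1327 to 2037 lower, the lowest each time without replicate 2 at 6 h. With replicates 1 and 3 alone, an alternative chosen after seeing the data, 2101 genes were called, 1037 higher and 1064 lower. The deviations of same-numbered libraries of the 2 times had correlations of 0.195, 0.053 and -0.147. With so few pairs these cannot exclude a pairing, which the labels do not state. A fixed replicate block gave 4897 genes and a random one 4666.

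The difference in the time change between CTRL and PIO was called for 1 gene by DESeq2 and for 1 with the random block, and between CTRL and PIO+GM for 12 by DESeq2, 2 with the random block, 7 with replicates 1 and 3 alone and 0 to 1 without 1 control library. The log2 fold change of C3 ranged from -0.149 to 3.35 and that of Mmp3 from -2.14 to 4.22 without 1 library, both lowest without replicate 3 at 24 h. Of 183 named genes that passed, 127 kept their call without each control library, 56 lost it without at least 1, and 2 of these reversed. Under some other alternative 37 lost their call. Of 46 list medians 30 kept their sign under every alternative and 16 did not. With the reported count in brackets, the count of higher members over the other fits on all 6 control libraries was 1 to 8 for macrophage (2), 1 to 7 for glycolysis and hypoxia (2), 2 to 7 for complement (7), 1 to 8 for cell cycle (7), 4 to 9 for oxidative phosphorylation (8), 1 to 5 for amino acid transporters (3) and 2 to 5 for matrix protease genes (5). The count of lower members was 3 to 8 for neuron (3), 2 to 7 for Schwann cell (4), 5 to 11 for cytokine (9), 4 to 7 for keratin (7) and 4 to 9 for cytosolic ribosomal protein genes (5). The cause was not tested.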
